A study of Rattus norvegicus with 9 samples.

Results

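The genes described are the glucocorticoid receptor Nr3c1, the mineralocorticoid receptor Nr3c2, the 11-beta dehydrogenase Hsd11b1 and 7 genes known to be induced by glucocorticoids, Fkbp5, Tsc22d3, Sgk1, Zbtb16, Pdk4, Hif3a and Klf9. They were chosen by gene name, each name matched 1 locus, and together they are 10 of the 34890 loci in the deposited table. RNA of the lumbar spinal cord (L3-L6, the ipsilateral side per the study's methods) came from wild-type Sprague Dawley rats in 3 groups of 3 samples. JA rats had a sham operation and oral normal saline. SNI rats had a spared nerve injury, in which branches of the sciatic nerve are ligated and cut, and oral normal saline. PLM rats had the same injury and the middle oral dose of the paeoniflorin and liquiritin combination, given in the labels as 20.65 mg/ml paeoniflorin with 3.98, 3.99 and 3.100 mg/ml liquiritin for replicates 1, 2 and 3. The study's methods give the first of these liquiritin values for the whole group, and it is unclear whether the replicates differed. The compounds were given together, so their separate parts cannot be told apart, and no sham-operated group received them.

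Glucocorticoids act through Nr3c1, a ligand-activated transcription factor that is held in the cytoplasm by heat shock chaperones and moves to the nucleus when a steroid binds. Nr3c2 binds the same hormones with high affinity, and Hsd11b1 sets how much active steroid a cell sees, because it turns the inert 11-keto form back into corticosterone with NADPH made by its partner H6pd. Hsd11b2 runs the opposite reaction. Paeoniflorin is a glycoside of peony root and liquiritin a flavonoid glycoside of liquorice root, and a different liquorice compound, glycyrrhetinic acid, is a known inhibitor of these dehydrogenases. Steroids and enzyme activity were not analysed here, so all values below are RNA levels.

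Values are TPM, a unit scaled for transcript length and to the same total in each sample, so levels can be compared between genes, while the read depth behind them is unknown. The 13 mitochondrial protein genes held 25.3% to 32.8% of the total in JA, 23.7% to 26.1% in SNI and 31.3% to 32.8% in PLM. The share was higher in each PLM sample than in each SNI sample. The median log2 fold change of all loci tested was -0.21 in PLM versus SNI, 0.12 in SNI versus JA and -0.10 in PLM versus JA. Each comparison is therefore given as deposited and again with each sample centred on the median of its loci. Markers of astrocytes, the glial cells marked by Gfap, were lower in PLM. Their summed level was 4388 to 7157 TPM in JA, 6057 to 7293 in SNI and 3211 to 3853 in PLM, and none of the 15 was at 0. In this bulk tissue fewer cells of a type and less RNA per cell cannot be told apart.

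The genes spanned a wide range of levels. Over the 9 samples Sgk1 averaged 130.5 TPM, Tsc22d3 89.2, Hsd11b1 20.4, Pdk4 19.1, Nr3c1 13.7, Klf9 11.99, Fkbp5 11.6, Zbtb16 5.48, Nr3c2 2.45 and Hif3a 0.20 TPM. Sgk1 exceeded Tsc22d3 in 7 of 9 samples, and Tsc22d3 exceeded Hsd11b1 in 9 of 9. The neighbours in the middle of this order did not separate: Hsd11b1 was above Pdk4 in 4 of 9 samples, Pdk4 above Nr3c1 in 6, Nr3c1 above Klf9 in 7 and Klf9 above Fkbp5 in 4. Fkbp5 was above Zbtb16, Zbtb16 above Nr3c2 and Nr3c2 above Hif3a in 9 of 9 samples. Nr3c1 was the steadiest, with the highest sample 1.38 times the lowest, whereas the highest sample was 4.54 times the lowest for Hsd11b1, 4.50 times for Zbtb16 and 4.28 times for Pdk4.

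**Figure D1:**
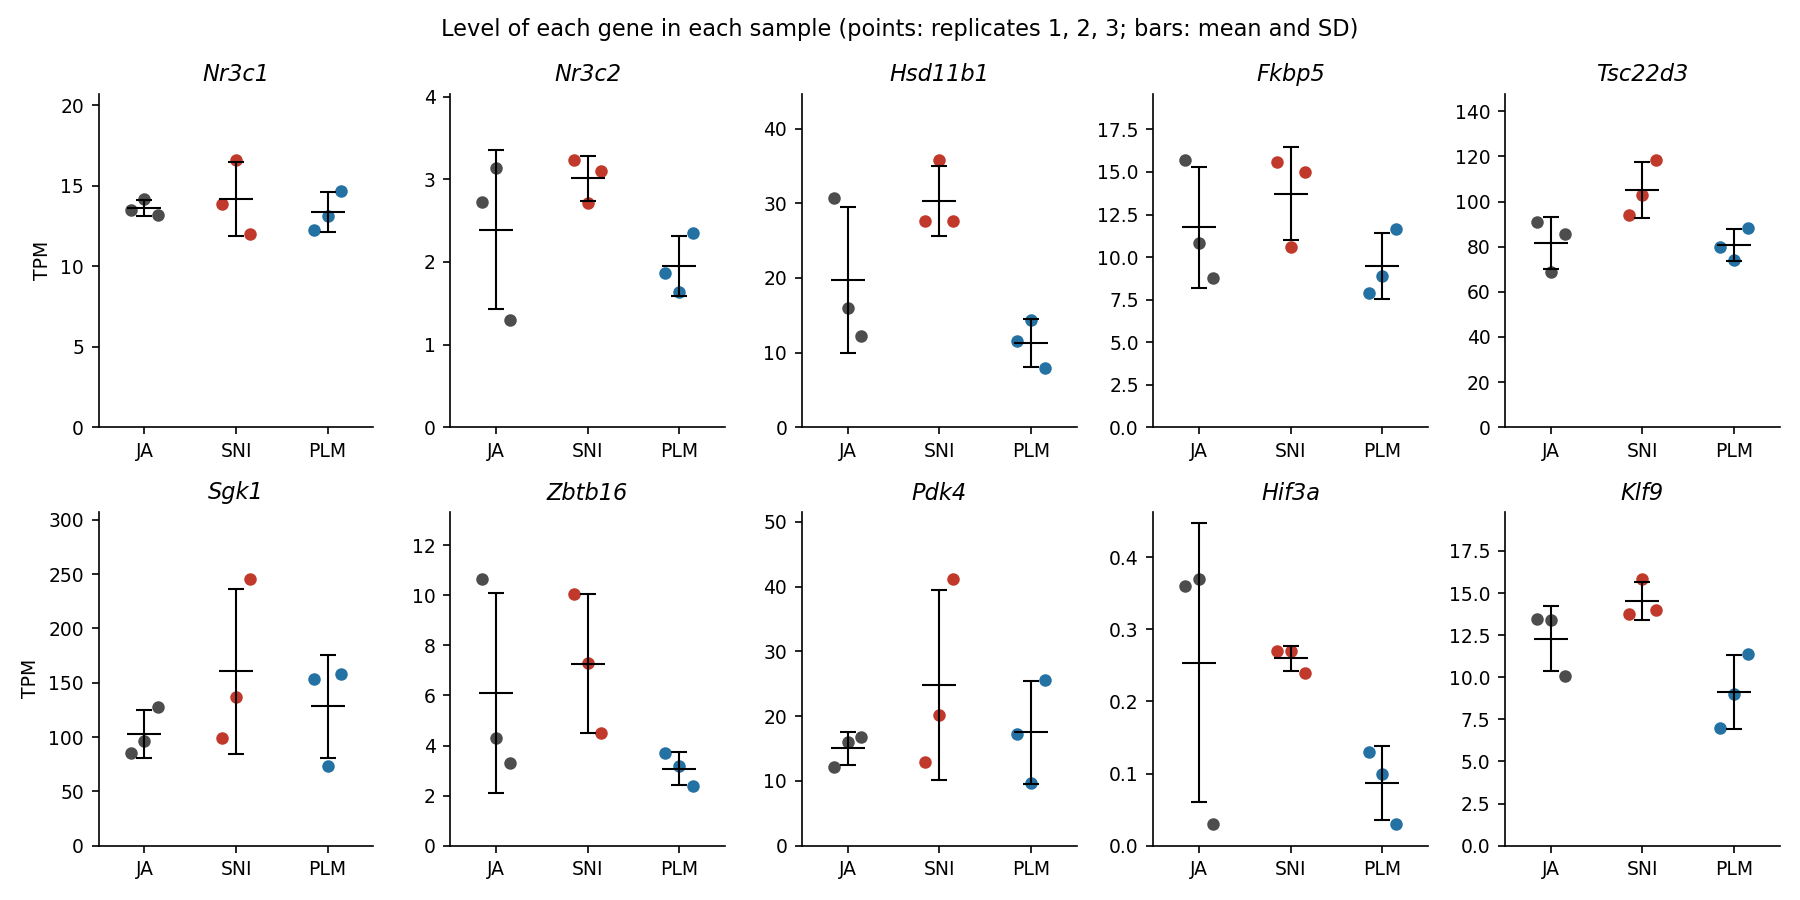
TPM of each gene (vertical axes, from 0) in the JA, SNI and PLM samples, with 1 point per replicate and bars for the mean and SD over 3 samples. Nr3c1 lay at 12 to 16.6 TPM in the 9 samples, while Hsd11b1 lay at 27.6 to 35.8 in SNI and 7.88 to 14.4 in PLM.

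The comparison of PLM with SNI addresses what the drug combination changed in injured rats. Hsd11b1 and Klf9 passed the test as lower, Klf9 only marginally, at an adjusted p of 0.0493 that held in 2 of 10 other settings. The other 7 genes tested had estimates below 0 that did not pass, that of the receptor Nr3c1 being the nearest to 0. The test was limma, a linear model that pools variance information over loci, on log2(TPM + 1) of loci averaging 1 TPM or more, and a gene was called when its Benjamini-Hochberg adjusted p over all loci tested was under 0.05. Called were 2 of the 9 genes tested, both lower, where 13.6% of the 15474 loci tested were called lower and 0.246% higher, so the count itself is no result about these genes. Hif3a was below the filter. The median log2 fold change over the 9 genes was -0.45, beside -0.21 over all loci, and 9 of 9 estimates were below 0, beside 85% of all loci. On median-centred values 0 of 9 were called by limma, beside 0.685% of loci called lower and 0.129% higher, and 3 had an unadjusted p-value under 0.05, beside 16.9% of loci. The median over the 9 genes was then -0.20, beside 0.04 over all loci.

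**Figure D2:**
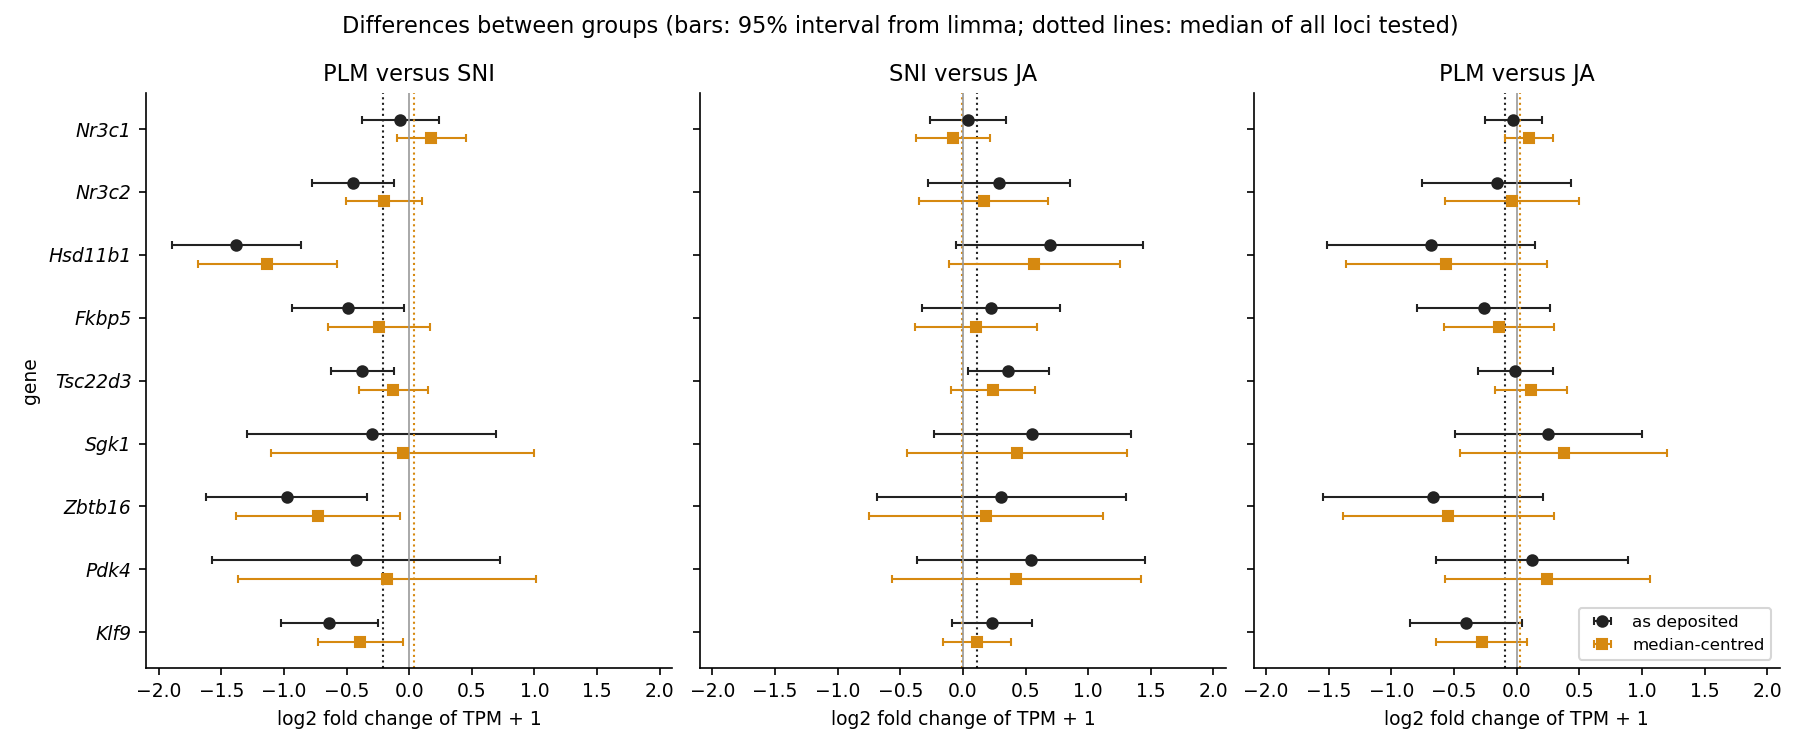
Log2 fold change of TPM + 1 (horizontal axes) of the 9 genes tested in PLM versus SNI, SNI versus JA and PLM versus JA, as deposited (circles) and median-centred (squares), with 95% intervals from limma. Dotted lines mark the median of all loci. In PLM versus SNI, Hsd11b1 lay farthest from it at -1.38 as deposited and -1.13 centred.

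Among the receptors, Nr3c1 was measured at 13.5, 14.2 and 13.2 TPM in JA, 13.9, 16.6 and 12 in SNI, and 12.3, 13.1 and 14.7 in PLM. The groups overlapped throughout. Set against SNI, its log2 fold change in PLM was -0.07 (95% interval -0.38 to 0.24, limma adjusted p = 0.707), and on centred values 0.18 (-0.10 to 0.46, adjusted p = 0.488), so its sign depended on the scaling. Nr3c2 was measured at 2.73, 3.13 and 1.30 TPM in JA, 3.23, 2.71 and 3.10 in SNI, and 1.87, 1.64 and 2.35 in PLM. Each PLM sample was below each SNI sample, as for 41.9% of loci, and JA replicate 3 was the lowest of the 9. The log2 fold change was -0.45 ± 0.14 (SE, limma adjusted p = 0.0719) as deposited and -0.20 ± 0.13 (adjusted p = 0.474) centred, where the groups overlapped. The ratio of Nr3c1 to Nr3c2 was 3.87 to 6.12 in SNI, 6.25 to 8.01 in PLM and 4.53 to 10.1 in JA, so PLM lay above SNI without overlap and inside the range of JA.

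Hsd11b1 was measured at 30.8, 15.96 and 12.3 TPM in JA, 27.7, 35.8 and 27.6 in SNI, and 11.6, 14.4 and 7.88 in PLM. The 3 SNI samples and JA replicate 1 were high, and the other 5 samples lay at 15.96 TPM or less, with a clear gap between SNI and PLM. Mean levels were 30.4 ± 4.69 TPM in SNI and 11.3 ± 3.26 in PLM (SD, n = 3), a ratio of 2.69. The log2 fold change was -1.38 ± 0.21 (SE, limma adjusted p = 0.0182, lower in 3 of 3 PLM samples), and Hsd11b1 was, with 1 TPM added, the only one of the 9 past the study's own thresholds of an unadjusted p-value under 0.05 and a log2 change above 1, which 1.42% of loci passed in the lower direction. Zbtb16 passed them too with 0.1 TPM added (-1.16), without PLM replicate 1 (-1.08) or without SNI replicate 3 (-1.24). The study applied these thresholds to DESeq2 results and here they were applied to limma, so the counts are not comparable. The change of Hsd11b1 stood among the lowest 0.911% of all loci. On centred values it was -1.13 ± 0.23 with adjusted p = 0.0924, so the call was lost while the groups stayed apart, as for 9.73% of loci in this direction. Across the other 10 settings the call held in 5, and it was lost without PLM replicate 1 (adjusted p = 0.0668) or without SNI replicate 1 (0.0632). The exact two-sided permutation test of 3 against 3 samples gave p = 0.1, the smallest it allows.

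The partner genes of Hsd11b1 were low. H6pd was measured at 3.38, 2.85 and 3.32 TPM in JA, 3.75, 4.04 and 3.60 in SNI, and 2.18, 2.39 and 2.79 in PLM. H6pd changed in PLM versus SNI by -0.48 on the log2 scale (SE 0.11, limma adjusted p = 0.0426) without overlap, and its centred value was -0.23 (adjusted p = 0.297). The call was lost with any 1 of the 6 samples left out, without a filter, with a block for replicate number and with 1 fit of the 9 samples. Hsd11b1 stood at 7.39 to 8.86 times H6pd in SNI, 2.82 to 6.01 times in PLM and 3.70 to 9.10 times in JA. Hsd11b2, which inactivates corticosterone, lay at 0.15 to 0.75 TPM in the 9 samples and was not tested, and Serpina6, the corticosteroid carrier of plasma, was listed at 0 in each. Of the 18 genes fixed for steroid conversion and transport, 13 were in the table and 7 were tested, of which 1, H6pd, was called lower as deposited, beside 13.6% of loci, and 0 on centred values, beside 0.685%. A share this near that of all loci is no result about the list.

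Hsd11b1 moved with the astrocyte markers over the samples. The mean centred log2(TPM + 1) of the 15 markers was 6.79, 6.44 and 5.77 in JA replicates 1, 2 and 3, 6.71, 6.75 and 6.51 in SNI, and 5.79, 5.60 and 5.36 in PLM. Like Hsd11b1, these were high in SNI and in JA replicate 1 and low in PLM and in JA replicate 3, whereas JA replicate 2 lay near SNI in the markers and near PLM in Hsd11b1 (4.09, beside 4.05 in PLM replicate 2). Pearson's r between them was 0.92 over the 9 samples (Spearman's rho 0.92), 0.92 without PLM replicates 2 and 3, and 0.82 for deviations from the group means, though the replicates stood in the same order for both in only 1 of the 3 groups. For Zbtb16 r with the markers was 0.85 and 0.83 for deviations from the group means, for Nr3c2 0.54 and 0.56, for Fkbp5 0.50 and 0.32, for Klf9 0.66 and 0.09, and for Nr3c1 -0.53 and -0.15. Tsc22d3 (0 and -0.35), Sgk1 (-0.26 and -0.47) and Pdk4 (-0.17 and -0.45) did not follow the markers, and Hif3a was not set against them. In PLM versus SNI 14 of the 15 astrocyte markers were called lower as deposited, beside 13.6% of loci, and 10 on centred values, beside 0.685%, with a median of -1.42 and -1.18. With each sample left out 11 to 14 were called as deposited, and with a block for replicate number 12, or 0 on centred values. Gfap, for example, changed by -1.28 (adjusted p = 0.00396). The part of these markers in the result for Hsd11b1 was not tested. Of the other cell types, 0 of 16 neuron, 0 of 14 oligodendrocyte, 1 of 12 microglia, 2 of 11 meningeal and fibroblast, and 0 of 12 endothelial, 10 pericyte and smooth muscle, 10 Schwann cell, 9 ependymal and 9 blood cell markers tested were called lower as deposited, beside the same 13.6%. On centred values 0 of these were called lower and 1 endothelial marker higher, beside 0.129% of loci. At an unadjusted p-value under 0.05, 7 of 12 microglia, 7 of 12 endothelial, 6 of 14 oligodendrocyte and 4 of 9 blood cell markers were then higher, beside 10% of loci, and 0 of 14 oligodendrocyte estimates were below 0. The part of these lists in the results was not tested.

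**Figure D3:**
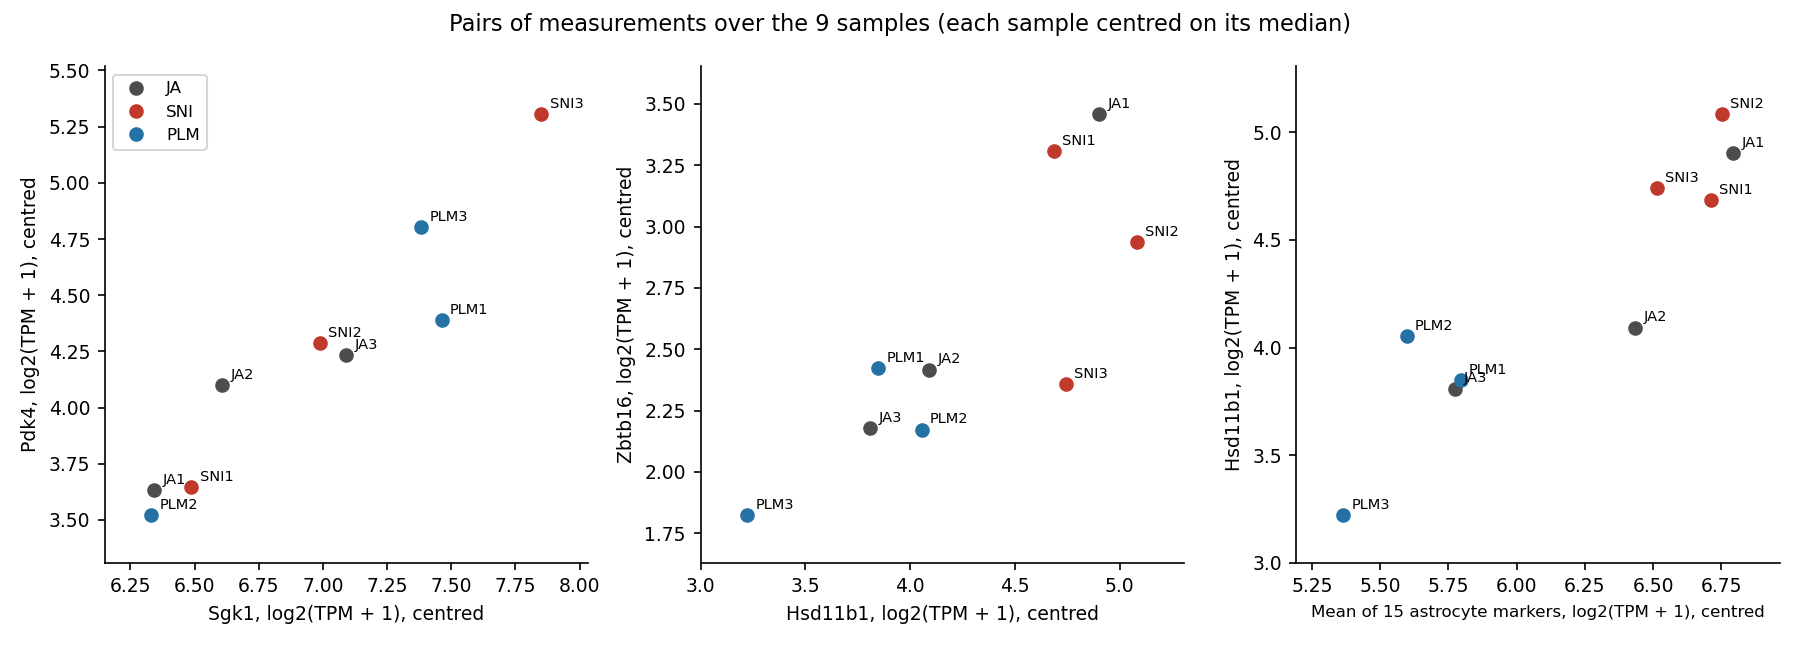
Centred log2(TPM + 1) over the 9 samples, 1 labelled point each, for Pdk4 against Sgk1 (left), Zbtb16 against Hsd11b1 (middle) and Hsd11b1 against the mean of 15 astrocyte markers (right). Pdk4 and Sgk1 lay along 1 line (r = 0.95), while in the right panel SNI and PLM did not overlap on either axis and JA replicates 1 and 3 lay at opposite ends of their group.

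Of the target genes, Fkbp5 encodes a co-chaperone that lowers the receptor's affinity for steroid. Its level was 15.7, 10.8 and 8.75 TPM in JA, 15.6, 10.6 and 15.01 in SNI, and 7.90, 8.89 and 11.6 in PLM. SNI replicate 2 lay inside the PLM range, so the groups overlapped. As log2 fold change this was -0.49 ± 0.19 (SE, limma adjusted p = 0.112) as deposited and -0.24 (95% interval -0.65 to 0.17) centred. Fkbp4, the co-chaperone that takes the place of Fkbp5 on the activated receptor, was more abundant, at 84.9 to 111 TPM, and the ratio of Fkbp5 to Fkbp4 was 0.103 to 0.152 in JA, 0.112 to 0.149 in SNI and 0.0879 to 0.129 in PLM, with overlap.

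Tsc22d3, also known as Gilz, encodes a leucine zipper protein that carries part of the anti-inflammatory action of glucocorticoids. In JA it stood at 90.8, 68.9 and 85.5 TPM, with 94.0, 103 and 118 in SNI, and 79.9, 74.2 and 88.3 in PLM. SNI lay above both other groups without overlap, and JA and PLM covered much the same range. In PLM versus SNI the log2 fold change was -0.37 ± 0.11 (SE, limma adjusted p = 0.0606) as deposited, and -0.13 (95% interval -0.40 to 0.15, adjusted p = 0.629) centred, where the groups overlapped. Tsc22d3 made up 19.7% to 26.5% of the summed TPM of Tsc22d1 and Tsc22d3 over the 9 samples.

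Klf9 encodes a zinc finger repressor that is induced by glucocorticoids and thyroid hormone in neural cells. It was measured at 13.5, 13.4 and 10.1 TPM in JA, 13.7, 15.9 and 14.0 in SNI, and 7.01, 9.01 and 11.4 in PLM. Each PLM sample was below each SNI sample, also on centred values. The log2 fold change was -0.64 ± 0.16 (SE, limma adjusted p = 0.0493) as deposited and -0.39 ± 0.14 (adjusted p = 0.240) centred. The call was marginal: it held in 2 of 10 other settings, and of the 6 fits that each left out 1 sample it held only in the fit without PLM replicate 3 (adjusted p = 0.0420), with 0.121 as the highest. Its relative Klf13 was called lower as well (-0.46, adjusted p = 0.0335), though not on centred values (-0.21, adjusted p = 0.326), and the ratio of Klf9 to Klf13 was 0.624 to 0.727 in SNI and 0.439 to 0.657 in PLM, with overlap.

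Zbtb16, which encodes the transcriptional repressor PLZF, was measured at 10.7, 4.31 and 3.29 TPM in JA, 10.04, 7.30 and 4.48 in SNI, and 3.69, 3.17 and 2.37 in PLM. The PLM samples were below the SNI samples, and the spread within JA and SNI was wide, with JA replicate 1 and SNI replicate 1 the highest. The mean in SNI was 2.36 times that in PLM. The log2 fold change was -0.98 ± 0.27 (SE, limma adjusted p = 0.0566) as deposited and -0.73 ± 0.27 (adjusted p = 0.251) centred, where the groups overlapped. It passed the test only when loci had to reach 1 TPM in every sample (adjusted p = 0.0388) and without SNI replicate 3 (0.0397). Zbtb16 and Hsd11b1 had a Pearson's r of 0.81 over the 9 samples (0.76 without SNI replicate 2 and PLM replicate 3, 0.74 for deviations from the group means).

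Sgk1 encodes a serum- and glucocorticoid-induced kinase that acts on ion channels and transporters. Levels were 85.1, 95.9 and 128 TPM in JA, 99.0, 137 and 246 in SNI, and 153, 73.5 and 158 in PLM. The groups overlapped, SNI replicate 3 was far above the others and PLM replicate 2 was the lowest. Its log2 fold change was -0.30 (95% interval -1.29 to 0.69, limma adjusted p = 0.610), and -0.05 (-1.10 to 0.99) centred, a range that leaves changes in either direction. Without SNI replicate 3 or PLM replicate 2 the value as deposited was 0.057. Sgk1 made up 82.3% to 94.4% of the summed TPM of Sgk1, Sgk2 and Sgk3.

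Pdk4 encodes a kinase that shuts pyruvate dehydrogenase and so spares glucose, and is induced by fasting and glucocorticoids. It was measured at 12.2, 16.1 and 16.8 TPM in JA, 12.96, 20.2 and 41.2 in SNI, and 17.3, 9.63 and 25.6 in PLM. Its highest and lowest samples were those of Sgk1, and the replicates stood in the same order for both genes in each group in TPM and in 2 of the 3 groups on centred values. Set against SNI, its log2 fold change in PLM was -0.43 (95% interval -1.57 to 0.72, limma adjusted p = 0.530), and -0.18 (-1.37 to 1.01) centred, neither past the test. The value rested on single samples, at 0.0070 without SNI replicate 3, -0.074 without PLM replicate 2 and -0.79 without SNI replicate 1. Pdk4 made up 14.8% to 38.4% of the summed TPM of Pdk1 to Pdk4, and Pdk2 37.9% to 56.2%. Pearson's r between Sgk1 and Pdk4 on centred values was 0.95 over the 9 samples (Spearman's rho 0.97), 0.90 without SNI replicate 3 and PLM replicate 2, and 0.95 for deviations from the group means. Group means on this scale stood at 6.68, 7.11 and 7.06 for Sgk1 and 3.99, 4.41 and 4.24 for Pdk4 in JA, SNI and PLM, in the same order for both.

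Hif3a encodes a hypoxia-inducible factor subunit. It was measured at 0.36, 0.37 and 0.03 TPM in JA, 0.27, 0.27 and 0.24 in SNI, and 0.13, 0.10 and 0.03 in PLM. In TPM the PLM values were below the SNI values, and JA held both the highest samples and a sample as low as any in PLM. On centred log2(TPM + 1) the direction turned and the groups overlapped, at 0.19, 0.23 and 0.21 in SNI (mean 0.21) and 0.37, 0.25 and 0.12 in PLM (mean 0.25), so no direction is read for Hif3a. Hif3a made up 0.0312% to 0.355% of the summed TPM of Hif1a, Epas1 and Hif3a, and at this level the filter kept it from the test. Without the filter its log2 fold change was -0.21 (adjusted p = 0.0719), on a scale where the added 1 TPM exceeds the values themselves.

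To show what the motifs searched look like in these genes, the 250 bases before the transcription starts of Sgk1, Pdk4, Klf9 and Tsc22d3 are given, from RefSeq (GRCr8, 5′ to 3′ on the gene's strand). Capitals in Sgk1 mark the TATA box TATAAA and the GC box GGGCGG on either strand, in Pdk4 the same GC box, in Klf9 the FOXO motif GTAAACA, and in Tsc22d3 the spaced core ACANNNTGT of the glucocorticoid response element.
Sgk1 (chr1:24804832-24805081, minus strand): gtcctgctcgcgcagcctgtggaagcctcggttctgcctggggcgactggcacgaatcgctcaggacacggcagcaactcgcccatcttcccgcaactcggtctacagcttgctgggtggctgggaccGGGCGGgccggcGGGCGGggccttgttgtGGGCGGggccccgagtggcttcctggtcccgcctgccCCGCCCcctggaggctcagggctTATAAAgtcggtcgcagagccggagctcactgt
Pdk4 (chr4:34568330-34568579, minus strand): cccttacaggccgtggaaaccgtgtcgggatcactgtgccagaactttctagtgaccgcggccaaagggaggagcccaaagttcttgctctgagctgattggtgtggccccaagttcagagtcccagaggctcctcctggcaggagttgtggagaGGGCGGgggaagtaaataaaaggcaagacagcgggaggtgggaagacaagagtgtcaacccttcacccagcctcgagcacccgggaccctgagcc
Klf9 (chr1:230126396-230126645, plus strand): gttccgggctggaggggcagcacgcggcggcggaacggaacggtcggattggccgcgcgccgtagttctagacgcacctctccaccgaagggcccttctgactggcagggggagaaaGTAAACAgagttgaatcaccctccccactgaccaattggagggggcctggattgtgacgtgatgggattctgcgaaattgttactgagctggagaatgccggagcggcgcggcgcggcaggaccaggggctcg
Tsc22d3 (chrX:109065431-109065680, minus strand): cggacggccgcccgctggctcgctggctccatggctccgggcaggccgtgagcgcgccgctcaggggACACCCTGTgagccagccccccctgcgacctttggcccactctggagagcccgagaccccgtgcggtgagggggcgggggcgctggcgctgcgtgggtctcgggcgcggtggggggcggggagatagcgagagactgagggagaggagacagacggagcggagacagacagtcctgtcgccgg

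Promoter windows of 300 bases, 250 before and 50 after the start, were found for 7 of the 10 genes, in 13 windows. Motifs were searched on both strands. The full glucocorticoid response element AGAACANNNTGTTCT was in 5 of all 33469 windows (0.0149%) and in 0 of the 13, and its hexamer AGAACA was in 20.7% of all windows and in 0 of the 13. The core ACANNNTGT, which overlaps the full element, was in 6.86% of all windows and in 1 of the 13, the Tsc22d3 window shown. GTAAACA was in 3.78% of all windows and in 2 of the 13, of Klf9 and of Tsc22d3 at another start. TATAAA was in 14.2% of all windows and in 3 of the 13, and GGGCGG in 33.1% and in 8. A match is a run of letters and not a site of binding, and these windows hold no distant element.

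The comparison of SNI with JA addresses what nerve injury alone changed. None of the 9 genes passed, and 0% of the 15557 loci tested were called by limma. All 9 estimates were above 0 as deposited, where 23.6% of all loci were below 0 and their median was 0.12, and 1 of the 9 had an unadjusted p-value under 0.05, beside 7.1% of loci. That gene was Tsc22d3, at 0.36 ± 0.14 (SE, unadjusted p = 0.0334, adjusted p = 0.614), and its centred value was 0.24 (unadjusted p = 0.133). Tsc22d3 and Klf9 were higher in SNI without overlap, as for 12.1% of loci, and neither was on centred values. Hsd11b1 was at 0.69 (95% interval -0.05 to 1.44, adjusted p = 0.614), with JA replicate 1 above SNI replicates 1 and 3. The value was 1.05 without JA replicate 1 and 0.42 without JA replicate 3. The estimates for Sgk1 and Pdk4 were 0.55 each, with intervals of -0.23 to 1.34 and -0.36 to 1.46, and they were 0.20 and 0.11 without SNI replicate 3 and 0.85 and 0.91 without SNI replicate 1. Nr3c1 was at 0.04 (-0.26 to 0.35) as deposited and -0.08 centred.

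The comparison of PLM with JA sets treated injured rats beside sham-operated rats. None of the 9 genes passed, where 0.0195% of the 15349 loci tested were called by limma, and 0 had an unadjusted p-value under 0.05, beside 11.8% of loci. Hsd11b1 was at -0.69 (95% interval -1.52 to 0.14, adjusted p = 0.498), Zbtb16 at -0.67 (-1.55 to 0.21, adjusted p = 0.529) and Klf9 at -0.40 (-0.85 to 0.04, adjusted p = 0.468), each with overlap between the groups. For Hsd11b1 and Zbtb16, JA replicate 1 lay far above the PLM samples and JA replicate 3 within their range of 7.88 to 14.4 and 2.37 to 3.69 TPM. Without JA replicate 1 the values were -0.33 for Hsd11b1 and -0.24 for Zbtb16, and without PLM replicate 1 that of Klf9 was -0.25. Nr3c1 (-0.03, 95% interval -0.26 to 0.20) and Tsc22d3 (-0.01, -0.31 to 0.29) were estimated more narrowly, and both signs turned positive on centred values (0.10 and 0.11). PLM versus SNI and SNI versus JA share the SNI samples, and PLM versus JA shares samples with each, so the 3 sets of values are not independent.

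The wider pathway was followed in 9 gene lists, whose counts are of genes called in PLM versus SNI as deposited, beside 13.6% of all loci called lower. Of the receptor chaperones 4 of 10 were called lower. Hsp90ab1, the constitutive Hsp90 that holds the receptor, was at 839, 726 and 718 TPM in JA, 864, 820 and 877 in SNI, and 733, 723 and 715 in PLM, with a log2 fold change of -0.24 ± 0.05 (SE, adjusted p = 0.0344) as deposited and 0.01 (adjusted p = 0.956) centred. Hsp90aa1 (-0.17, adjusted p = 0.525) and Fkbp4 (-0.19, adjusted p = 0.107) did not pass. Of the receptor coregulators 5 of 12 were called lower, and of the related steroid receptors 0 of 4 tested. The calls of chaperones and coregulators rested on every library but SNI replicate 2: both counts were 4 without it and 0 without any one of the other 5 samples, and 0 with a block for replicate number or 1 fit of the 9 samples. On centred values 0 genes of these 3 lists were called, beside 0.814% of loci.

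Of 27 further glucocorticoid-induced genes tested, 6 were called lower in PLM versus SNI and 0 higher, beside 13.6% and 0.246% of loci. The count was 2 without PLM replicate 1, SNI replicate 1 or SNI replicate 3, 3 without PLM replicate 2 or 3, 4 without SNI replicate 2, and 1 with a block for replicate number. The 6 were the metallothionein Mt2A (-0.91, adjusted p = 0.00906), glutamine synthetase Glul (-0.59, adjusted p = 0.00725), the lipid droplet coat gene Plin4 (-1.10, adjusted p = 0.0336), the cell cycle inhibitor Cdkn1c (-0.47, adjusted p = 0.0172), the repressor Bcl6 (-0.63, adjusted p = 0.0442) and the GTPase Rhob (-0.28, adjusted p = 0.0227). They were named after their values were seen. Glul is also strongly expressed in astrocytes. The other genes of the list were not checked for this, and the part of astrocytes in these values was not tested. The period gene Per1 was at 6.93, 9.02 and 10.5 TPM in JA, 7.68, 11.1 and 12.8 in SNI, and 8.09, 6.04 and 9.45 in PLM, with overlap (-0.37, adjusted p = 0.246). Klf15 was at 10.8, 10.5 and 11.9 TPM in JA, 10.5, 11.8 and 15.3 in SNI, and 7.92, 7.20 and 9.64 in PLM (-0.54, adjusted p = 0.0654 versus SNI). As deposited, PLM lay below both other groups without overlap, as for 41.9% of loci versus SNI and 15.7% versus JA. The list's median was -0.39, beside -0.21 over all loci, with 24 of 27 below 0 beside 85% of loci. On centred values it was -0.15 beside 0.04, with 22 of 27 below 0 beside 42.4% of loci, and 0 were called.

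Of 6 glucocorticoid-repressed inflammatory genes tested, of 13 listed, 0 were called. This count was 1 without SNI replicate 3, with a pseudocount of 0.1 or with at least 1 TPM in every sample. Of 13 relatives of the target genes 5 were called lower as deposited (Pdk1, Pdk2, Hif1a, Epas1 and Klf13) and 0 on centred values, whereas Sgk3 was at 0.02 (adjusted p = 0.910). The count was 0 without PLM replicate 1 or 2, 1 without SNI replicate 1 or 3, 2 without PLM replicate 3 or SNI replicate 2, and 0 with a block for replicate number. Of 14 immediate early genes 0 were called. Of 17 circadian clock genes, which share Per1 with the induced genes, 4 were called lower and 1 higher as deposited, beside 13.6% and 0.246% of loci. The count of 5 became 0 without PLM replicate 1, without SNI replicate 1 or with a block for replicate number, 3 without SNI replicate 2, and 2 without any one of the other 3 samples. The gene called higher, the output gene Dbp, was the only gene of the 9 lists called on centred values, where 0.129% of loci were called higher. It was measured at 40.5, 45.5 and 32.2 TPM in JA, 49.6, 42.6 and 44.0 in SNI, and 58.7, 56.0 and 57.0 in PLM, and changed by 0.33 (adjusted p = 0.0380) as deposited and 0.58 (adjusted p = 0.0390) centred. In SNI versus JA and in PLM versus JA 0 genes of the 9 lists were called.

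**Figure D4:**
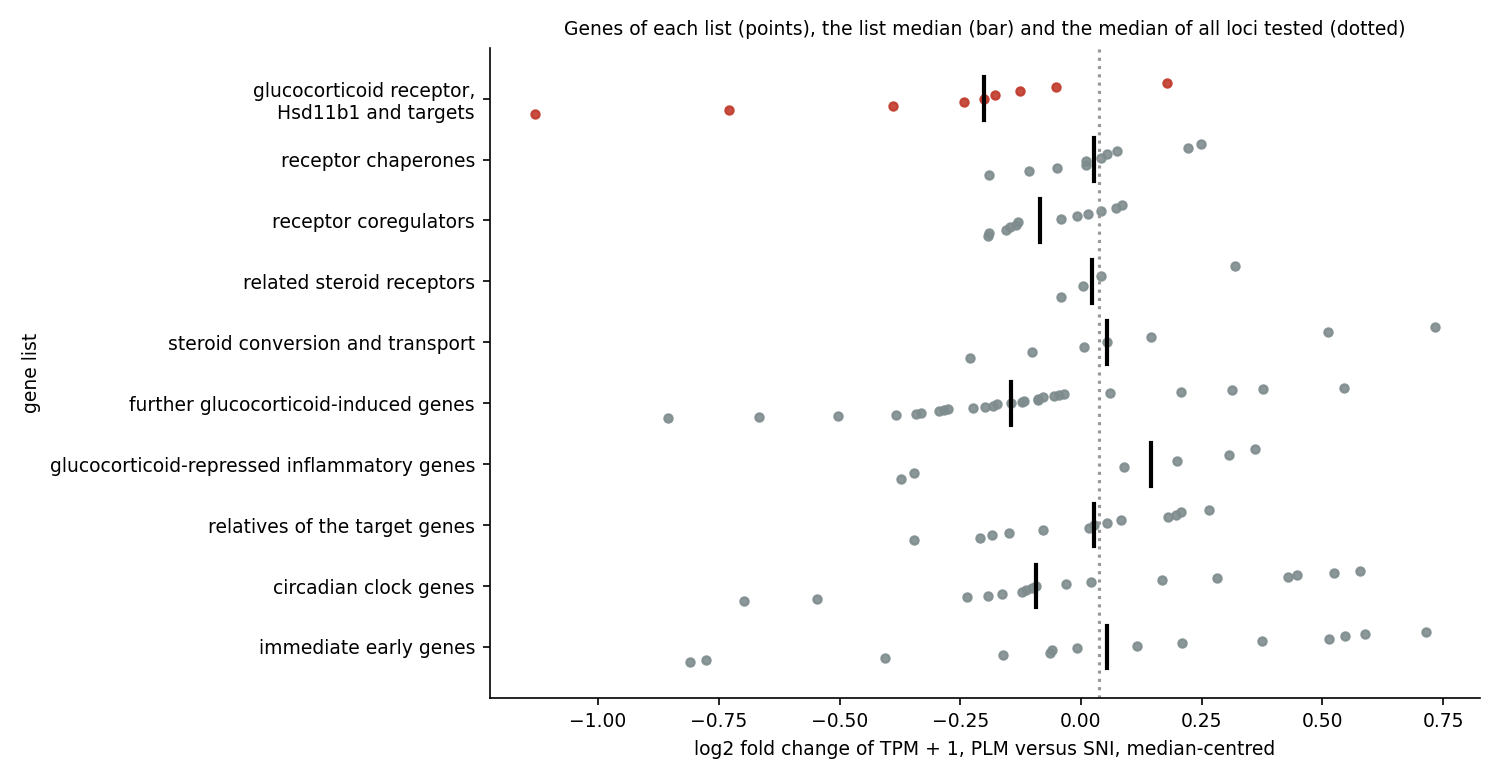
Log2 fold change of TPM + 1 in PLM versus SNI on median-centred values (horizontal axis) for each gene tested in the 9 lists (grey) and for the 9 receptor, dehydrogenase and target genes (red), with the list median as a bar and the median of all loci (0.04) as a dotted line. Hsd11b1 at -1.13 and Zbtb16 at -0.73 are the lowest of the red points, and the further glucocorticoid-induced genes have a median of -0.15.

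The loci whose centred pattern over the 9 samples was most like each gene were found among those with a mean of at least 5 TPM, by Pearson's r, as a description. For Hsd11b1 they were Paqr7, Wnt7a and Scg3 (r of 0.964, 0.955 and 0.954). Paqr7, a membrane progestin receptor, lay at 45.9 to 52.3 TPM in SNI, 22.9 to 26.8 in PLM and 30.2 to 48.6 in JA. It was picked for its likeness to Hsd11b1, so a like gap between SNI and PLM follows from the choice. As deposited, 41.9% of loci were lower in PLM than in SNI without overlap. For Zbtb16 they were Trib2, Ano8 and Adgrb2 (r from 0.94 to 0.96). For Sgk1 they were Pdk4, Klf2 and Nfil3, and for Pdk4 they were Errfi1, Sgk1 and Klf2 (r from 0.93 to 0.96). Klf2, a zinc finger factor of vessel walls, and Errfi1, a feedback inhibitor of the EGF receptor, were highest in SNI replicate 3 and lowest in PLM replicate 2, at 67.2 and 33.6 TPM for Klf2 and 65.5 and 20.6 TPM for Errfi1. Both were picked for likeness over these same samples, so shared extreme samples follow from the choice. For Tsc22d3 they were Rims2, Ppip5k2 and Ddit4 (r from 0.89 to 0.96). Ddit4, like Errfi1, is in the list of induced genes. For Nr3c1 they were Epc2, Tbc1d15 and Erbin, for Nr3c2 Arhgef12, Ube3b and Fam168b, for Fkbp5 Thrap3, Lrfn3 and Cyb5d2, and for Klf9 Mtpn, Tmbim6 and Azin1, with r from 0.91 to 0.97.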

How the data were processed

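The authors deposited 1 table of TPM values for 34890 loci, read as TPM because the samples share 1 total. Per the study's methods, reads were mapped with HISAT2 and quantified with StringTie, and the submitters' notes name fastp 0.19.5 and CASAVA. Those notes name the human build GRCh38.p13, while the identifiers are rat Ensembl genes, so no coordinates were taken from the table. The strand setting is not given in the sources used here. TPM keeps no depth, so counting error cannot be given and count models were not used.

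TPM + 1 was log2-transformed and the groups were compared in pairs with limma 3.58.1 (R 4.3.3, variance trend, no covariate) keeping loci that averaged 1 TPM or more in the 6 samples. Calls used a Benjamini-Hochberg adjusted p-value under 0.05 over all loci, and genes past the study's thresholds (log2 fold change beyond 1 in size, p-value under 0.05 before adjustment) were counted beside them. The labels call the 3 samples of a group biological replicates and name no animals, so p-values measure the spread between these samples. The model was run on simulated data with independent errors and no shift of whole samples, so that run does not bear on the scaling between samples.

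The genes and lists were chosen with earlier results of these data known. Named were the 10 genes, list genes called both as deposited and centred, Hsd11b2, H6pd, Hsp90aa1, Hsp90ab1, Fkbp4, Per1, Klf15, and for each gene tested the 3 loci most like it. Genes added after their values were seen are said to be so or serve as partners in a ratio. Alternatives were median-centring, quantile normalization, TPM without the 13 mitochondrial genes, other filters, a pseudocount of 0.1, 1 fit of the 9 samples, no variance trend, a block for replicate number, and each sample left out in turn. Leaving out samples on centred values, and all settings for the astrocyte markers, were added after seeing the data. An edgeR quasi-likelihood fit was planned in case the table held counts, and was not run.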

Additional observations from a re-analysis of the deposited data

How the results depend on the processing

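Depth is unknown, so low genes such as Hif3a and Hsd11b2 cannot be given a counting error. In PLM versus SNI 2 genes were called. The count was 0 on median-centred or quantile-normalized values, without the mitochondrial genes and with 1 fit of the 9 samples, 1 without a filter, without a variance trend or at the study's thresholds, 5 with at least 1 TPM in every sample, and 0 to 2 with each sample left out (0 on centred values). At an adjusted p-value under 0.05 the count stayed 0 in the other comparisons in each setting run. At the study's thresholds Hsd11b1 (1.05) passed in SNI versus JA without JA replicate 1. In PLM versus SNI the pseudocount of 0.1 left 2. Deviations from the group means had r from -0.05 to 0.13 between same-numbered samples and -0.19 to 0.14 between differently numbered ones. With 3 samples per group these values cannot show whether the numbers mark pairs or a batch. With the replicate number as a block the count was 1, 0 on centred values, and calls over all loci went from 2110 lower and 38 higher to 151 and 1. Hsd11b1 ranged from -1.56 to -1.16 with each sample left out, and its adjusted p-value was 0.0889 with quantile normalization, 0.0550 without the mitochondrial genes and 0.0510 with 1 fit. The sign of Nr3c1 turned in PLM versus SNI, SNI versus JA and PLM versus JA to 0.18, -0.079 and 0.097 on centred values, with or without the block, 0.17, -0.086 and 0.084 with quantile normalization and 0.070, -0.043 and 0.027 without the mitochondrial genes. That of Tsc22d3 in PLM versus JA turned to 0.11, 0.076 and 0.047 in these settings. With each sample left out, ranges that crossed 0 were, in PLM versus SNI, -0.17 to 0.043 for Nr3c1, -0.59 to 0.057 for Sgk1 and -0.79 to 0.0070 for Pdk4, in SNI versus JA -0.070 to 0.15 for Nr3c1, and in PLM versus JA -0.093 to 0.029 for Nr3c1, -0.42 to 0.0048 for Nr3c2, -0.13 to 0.069 for Tsc22d3 and -0.19 to 0.47 for Pdk4. Of the single-gene values over the 3 comparisons, 238 kept their direction and side of the threshold in the other settings, 13 lost a call, 3 gained one and 16 turned in sign, and with each sample left out 141 kept both, 7 lost a call, 1 gained one and 13 turned. The causes were not tested.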

Other observations

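Of the 15 astrocyte markers, 10 passed the test as lower in PLM versus SNI both as deposited and on centred values, Gfap, Slc1a2, Slc1a3, Gjb6, Gja1, Aldh1l1, Fgfr3, Atp1b2, Slc4a4 and Ntsr2. Among the clock genes the activators Arntl and Npas2 went the opposite way to Dbp as deposited. Arntl was at 11.3, 9.33 and 8.85 TPM in JA, 11.2, 10.9 and 9.22 in SNI, and 5.13, 6.26 and 5.42 in PLM (log2 fold change in PLM versus SNI -0.79, limma adjusted p = 0.0138, and 0.0745 on centred values). Npas2 was at 5.82, 3.79 and 2.72 TPM in JA, 5.61, 5.30 and 4.68 in SNI, and 1.98, 2.74 and 1.98 in PLM (-0.94, adjusted p = 0.0147, and 0.0749 on centred values). Arntl and Npas2 were chosen after their values were seen, and the hour at which tissue was taken is not given in the sources used here.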
